A study of Mus musculus with 16 samples.

Results

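The genes described here are 10 genes of fatty acid synthesis in mouse 3T3-L1 cells: Acly, Acaca, Fasn, Scd1, Scd2, Elovl6, Me1, Srebf1, Mlxipl and Thrsp. They were chosen by name out of 22367 protein-coding genes of the mm9 annotation, and each was examined in a window of its gene body plus 50 kb on each side. Enriched regions, called islands, that overlap these windows number 687 of the 479799 islands in 16 ChIP-seq lists. 3T3-L1 cells are mouse preadipocytes in culture, which turn into lipid-laden adipocytes when given the hormone cocktail MDI. H3K27ac, a histone mark of active promoters and enhancers, was profiled in cells that carry an empty retroviral vector and in cells that stably express V5-tagged SETD5 from a weak viral promoter, at 0 h and 48 h of differentiation (8 lists, replicates A and B in each group). SETD5-V5 itself was profiled with an antibody to the tag at 0 h and 6 h (4 lists, replicates A and B), H3K4me1 at 0 h and 48 h (1 list each) and endogenous SETD5 at 0 h and 6 h (1 list each). For the H3K4me1 libraries the labels give the SETD5-V5 virus, while the study's figures show those cells as untransduced. The label of viral vector is blank for replicate A of SETD5-V5, whose titles name SETD5-V5. SETD5-V5 is made in addition to the cells' own SETD5, at a moderate level.

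Cells make fatty acids from citrate. ATP citrate lyase (Acly) splits citrate into acetyl-CoA, acetyl-CoA carboxylase (Acaca) turns it into malonyl-CoA, and fatty acid synthase (Fasn) builds palmitate from these, with NADPH that malic enzyme (Me1) helps to supply. The elongase Elovl6 lengthens palmitate, and the stearoyl-CoA desaturases Scd1 and Scd2 put in a double bond. The transcription factors SREBP-1 (Srebf1) and ChREBP (Mlxipl) drive these genes in liver and fat in response to insulin and sugar, and Thrsp (Spot 14) is a small protein that goes up with lipogenesis. These genes are switched on as preadipocytes become adipocytes. SETD5 is a SET-domain protein that the study examined as a brake on that process.

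The lists hold 31292 to 39949 islands for H3K27ac, which cover 103 to 122 Mb, and 6666 to 35573 for SETD5-V5, which cover 35.3 to 196 Mb. H3K4me1 has 49926 and 50276 islands and endogenous SETD5 has 2132 and 3293. The lists give no read counts, so the depth behind an island is unknown, and a region missing from a list was below the caller's threshold. The study's reporting summary gives total reads per library, which were not used here. By those totals every H3K27ac library of SETD5 cells had more reads than every empty-vector one. Among the SETD5-V5 libraries, 0 h A had the fewest. The part of these totals in the island lists was not tested. Each window is described by the kb that islands cover in it. The cells are a bulk population, so fewer cells with a mark and less of the mark per cell cannot be told apart. Of 9 adipocyte genes used as a check (Pparg, Cebpa, Fabp4, Adipoq, Plin1, Lpl, Cd36, Cidec and Adig), 3 had an H3K27ac island at the promoter in each 0 h list, 8 in each empty-vector list at 48 h and 6 in each SETD5 list at 48 h, which lacked Adipoq and Adig. Of 7 preadipocyte genes 6 or 7 had one in every list. None of 8 markers of other cell types had one in any H3K27ac list. The adipocyte markers thus move with time and with the vector at 48 h, and their part in the results was not tested.

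The promoter of Scd1 is shown because this gene had the largest log2 gain of H3K27ac among the 10. Its neighbour on chromosome 19, Scd2, lies 87.6 kb away. The sequence is the 250 bases upstream of the annotated gene 5′ end, read from mm9 and written 5′ to 3′ on the strand of the gene. Capitals mark CCAAT, the box bound by NF-Y, CACGTG, an E-box, TCACNCCAC, a form of the sterol response element, and TTGCNNAA, a C/EBP-type site, on both strands, each counted on its own. The position is chr19:44482200-44482449 (minus strand).
Scd1: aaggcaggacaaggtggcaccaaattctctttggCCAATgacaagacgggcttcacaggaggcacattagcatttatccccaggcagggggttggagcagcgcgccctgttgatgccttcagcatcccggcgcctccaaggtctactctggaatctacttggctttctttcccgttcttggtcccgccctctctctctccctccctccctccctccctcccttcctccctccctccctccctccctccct
This stretch holds 1 CCAAT box. Over 22362 promoters of the same length, 35.0% held CCAAT, 6.52% CACGTG, 1.03% TCACNCCAC and 9.16% TTGCNNAA. The RefSeq promoter table lists 8 of the 10 genes, each of which matched mm9 once, and the RefSeq start lay within 100 bases of the annotated 5′ end for 2 of them.

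At 48 h in empty-vector cells, H3K27ac islands covered more of the windows of some of these genes and less of others. A test across all genes (limma on log2 of covered kb plus 1, Benjamini-Hochberg adjusted p under 0.05, 18201 genes with any H3K27ac island) called 5 of the 10 genes higher, Scd1, Fasn, Srebf1, Scd2 and Thrsp, and 2 lower, Elovl6 and Mlxipl. Over all genes 23.5% were called higher and 13.1% lower. Acly, Acaca and Me1 did not pass. The median log2 change was 0.59 for the 10 genes and 0.12 for all genes tested. Both 48 h lists lay above both 0 h lists for 6 genes and below for 2, against 39.3% and 22.9% of all genes.

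**Figure D1:**
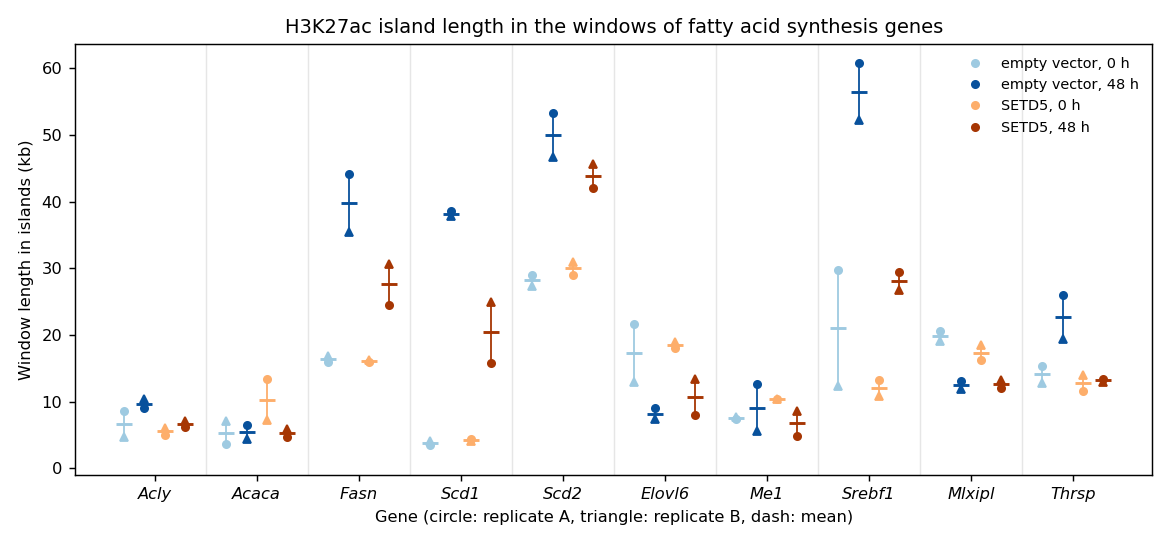
Length of each gene's window in H3K27ac islands (y axis, kb), by gene (x axis), with replicate A as a circle, replicate B as a triangle, a line joining them and their mean as a dash. Scd1 goes from 3.4 and 4.0 kb to 38.6 and 37.8 kb in empty-vector cells and to 15.8 and 25.0 kb in SETD5 cells.

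Scd1 had the largest change of the 10 on the log2 scale, while in kb Srebf1 gained 31 and 39.8 kb and Scd1 35.2 and 33.8 kb in A and B. Its window held 3.4 kb of H3K27ac islands in replicate A and 4.0 kb in replicate B at 0 h, and 38.6 and 37.8 kb at 48 h. The mean went from 3.70 ± 0.424 kb to 38.2 ± 0.566 kb (SD, n = 2), a log2 change of 3.06 with a standard error of 0.21 (limma, adjusted p = 0.00013). The groups are far apart, and the number of islands went from 1 and 2 to 8 and 9. At the promoter the island lengthened from 3400 and 2200 bp to 7200 and 6400 bp, and the share of the list with a higher score went from 39.0% and 40.2% to 8.41% and 7.35%. The rest of the change lies in islands away from the promoter. Of those islands, 7 stretches covering 27 kb were shared by both 48 h lists and overlapped by neither 0 h list, more than at any other of the 10 genes. The strongest runs over the 3′ end of Scd1 and beyond it at chr19:44459601-44470000, with its centre 17.4 kb downstream of the 5′ end, and only 4.80% and 3.07% of the lists scored higher. It was already present in H3K27ac lists of SETD5 cells at 0 h, and H3K4me1 lay there at both times. The next is at chr19:44530801-44537000, centred 51.7 kb upstream of the Scd1 start, between genes, with 8.59% and 9.58% of the lists scoring higher.

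The central 300 bases of these 2 sites, and of 2 sites upstream of Scd2 at chr19:44363801-44365200 and chr19:44316801-44318600, are shown because SETD5-V5 islands of both replicates overlapped them at 6 h. All are stretches shared by both empty-vector 48 h lists and overlapped by neither empty-vector 0 h list. In A the nearer Scd2 stretch is part of the 28400 bp promoter island. For the nearer and farther Scd2 stretches, 0.735% and 12.9% (A) and 60.5% and 65.3% (B) of the lists scored higher. The more distant Scd2 site lies over Scd3, and both Scd2 sites were absent from both SETD5 48 h lists. They are written on the plus strand of mm9 from chr19:44464651-44464950, chr19:44533751-44534050, chr19:44364351-44364650 and chr19:44317551-44317850, with the motifs above in capitals.
Scd1 downstream: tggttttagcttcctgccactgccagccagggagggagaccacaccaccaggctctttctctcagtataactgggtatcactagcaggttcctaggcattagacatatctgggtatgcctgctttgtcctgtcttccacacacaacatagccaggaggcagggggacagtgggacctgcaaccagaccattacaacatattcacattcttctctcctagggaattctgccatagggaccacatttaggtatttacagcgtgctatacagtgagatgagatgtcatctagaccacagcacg
Scd1 upstream: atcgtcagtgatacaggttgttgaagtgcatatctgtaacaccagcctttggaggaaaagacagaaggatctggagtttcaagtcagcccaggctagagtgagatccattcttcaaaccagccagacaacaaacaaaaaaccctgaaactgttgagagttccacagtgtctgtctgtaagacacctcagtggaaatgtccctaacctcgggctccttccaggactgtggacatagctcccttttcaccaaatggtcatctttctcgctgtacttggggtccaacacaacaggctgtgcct
Scd2 upstream: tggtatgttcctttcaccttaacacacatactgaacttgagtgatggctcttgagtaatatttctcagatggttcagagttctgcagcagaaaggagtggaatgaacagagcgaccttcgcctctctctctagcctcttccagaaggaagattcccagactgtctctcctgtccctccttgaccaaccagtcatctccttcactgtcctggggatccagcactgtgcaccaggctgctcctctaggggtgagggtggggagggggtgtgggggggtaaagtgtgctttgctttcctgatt
Scd2 far upstream: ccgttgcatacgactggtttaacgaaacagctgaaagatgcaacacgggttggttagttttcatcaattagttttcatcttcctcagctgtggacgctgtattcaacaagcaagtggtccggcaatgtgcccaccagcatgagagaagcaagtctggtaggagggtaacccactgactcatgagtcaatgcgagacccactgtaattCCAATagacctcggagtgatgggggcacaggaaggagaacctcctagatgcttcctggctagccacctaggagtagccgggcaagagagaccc
The far upstream stretch of Scd2 holds 1 CCAAT, and none of the 4 motifs is found in the other 3 stretches, which says only that these letters are not in these windows. Over the centres of 7330 such induced stretches of the genome, 36.1% held CCAAT, 3.08% CACGTG, 0.955% TCACNCCAC and 19.3% TTGCNNAA.

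Scd2, the other desaturase, was already broadly marked before differentiation. Its window held 29.0 and 27.4 kb of H3K27ac at 0 h and 53.2 and 46.6 kb at 48 h in empty-vector cells. The groups do not overlap, and the log2 change was 0.80 with a standard error of 0.10 (limma, adjusted p = 0.00125). The promoter island was 6200 and 5400 bp at 0 h and 28400 and 10800 bp at 48 h, so its length at 48 h differed between replicates. By the number of islands Scd2 changed by −0.0760 on the log2 scale, from 9 and 10 islands at 0 h to 8 and 10 at 48 h. The windows of both desaturases overlap by 12.4 kb, and 1 island in all lists lies in both.

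**Figure D2:**
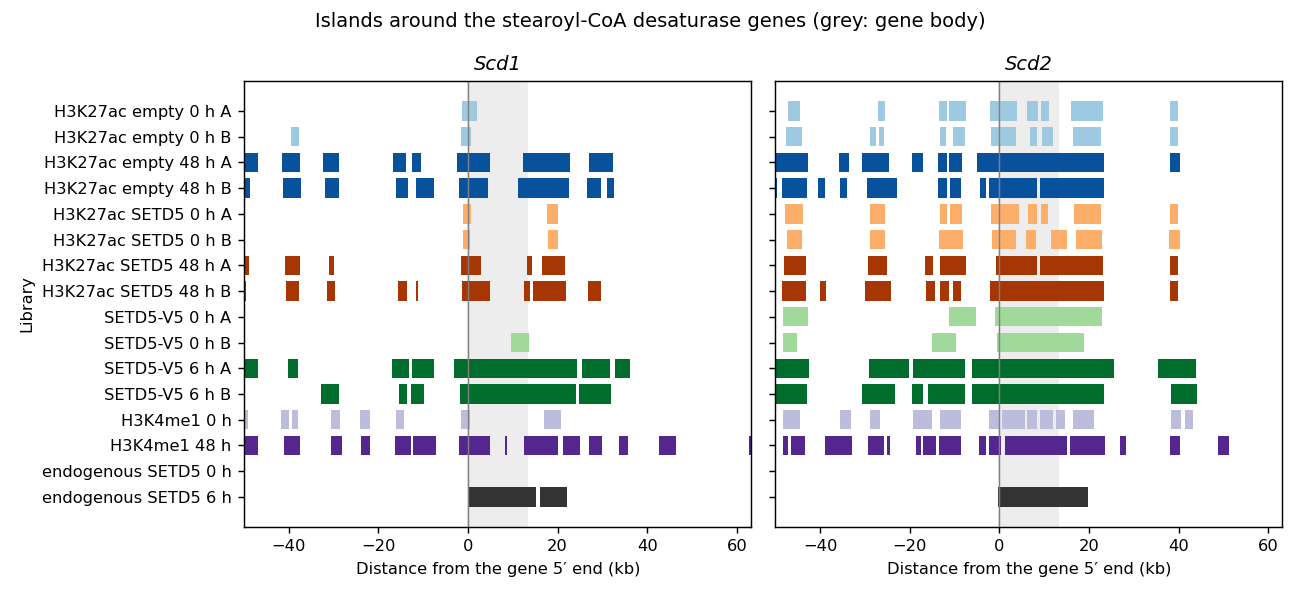
Islands of all 16 lists around Scd1 and Scd2, drawn as bars by distance from the gene 5′ end in the direction of transcription (x axis, kb), 1 row per list, with the gene body in grey. At Scd1 the empty-vector 0 h H3K27ac lists hold 1 and 2 islands and the empty-vector 48 h lists 8 and 9, while at Scd2 the SETD5-V5 island over the gene is 23.8 and 19.4 kb long at 0 h.

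Fasn had 15.9 and 16.9 kb of H3K27ac in its window at 0 h and 44.1 and 35.5 kb at 48 h (log2 change 1.22, standard error 0.15, limma adjusted p = 0.000909). Both 48 h lists are clear of both 0 h lists. The promoter was among the strongest of the 10 at 0 h, with 5.05% and 5.39% of islands scoring higher, and 2.72% and 4.06% at 48 h. The growth came mostly from outside it, and part of it lay at other genes. In replicate A the island at the promoters of Gps1 and Rfng went from 2200 to 4000 bp. That at the Dus1l promoter went from 1400 to 2800 bp, and islands inside Ccdc57 lengthened too. With the window narrowed to 10 kb on each side Fasn was not called (limma, adjusted p = 0.0913). An induced pair of sites lies in the intergenic stretch 49.3 and 55.3 kb downstream of the 5′ end, at chr11:120633401-120639000 and chr11:120627801-120632600, and was also found in both SETD5 48 h lists.

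Srebf1 carried the highest-ranked islands of the group. At 48 h in empty-vector cells a single island of 37000 bp (replicate A) and 32200 bp (replicate B) ran over the whole gene and into the neighbours Rai1 and Tom1l2, and only 0.134% and 0.178% of the lists scored higher. At 0 h the window held separate shorter islands, the longest 6.2 and 3.8 kb. The window went from 29.8 and 12.4 kb to 60.8 and 52.2 kb (log2 change 1.497, standard error 0.345, limma adjusted p = 0.0134). The 0 h replicates are far apart but both lie under the 48 h ones. The annotated 5′ end of Srebf1 lies upstream of all its coding transcript starts, and the RefSeq start lies 12.1 kb inside the gene.

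Thrsp gained more modestly, from 15.4 and 12.8 kb to 26 and 19.4 kb (log2 change 0.64, standard error 0.18, limma adjusted p = 0.0261). Its promoter island went from 4600 and 4200 bp to 7200 and 6000 bp, and an island about 28.2 kb upstream from 2400 and 2000 bp to 5200 and 4400 bp, while in SETD5 cells the latter was 2200 and 2000 bp at 48 h. A site 35.9 kb upstream, inside Kctd14, appeared in each empty-vector list at 48 h and in no other list of H3K27ac. Acly had 8.6 and 4.6 kb at 0 h and 9.0 and 10.4 kb at 48 h (adjusted p = 0.151 by limma). Its promoter island was 4800 and 1400 bp at 0 h and 5800 and 5400 bp at 48 h, so the 0 h replicates disagree about the starting point. Acaca had 3.6 and 7.0 kb at 0 h and 6.4 and 4.4 kb at 48 h, and Me1 had 7.4 and 7.6 kb and then 12.6 and 5.6 kb. By window total the groups overlap for both. The best-ranked Acaca island, over coding starts 50.1 and 50.2 kb inside the gene, went from 2400 and 2800 bp to 3800 and 3200 bp. The share scoring higher than it went from 25.1% and 28.1% to 17.0% and 19.4%.

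Elovl6 went the other way, from 21.6 and 13.0 kb at 0 h to 9.0 and 7.4 kb at 48 h (log2 change −0.96, standard error 0.29, limma adjusted p = 0.0369). Its promoter island hardly differed, at 6600 and 6200 bp and then 5400 and 5000 bp. The loss lay at the far end of the gene, where 4 of 6 islands (replicate A) and 3 of 5 (replicate B) of the 0 h lists had no island at 48 h. Mlxipl went from 20.7 and 19.1 kb to 13.1 and 11.9 kb (log2 change −0.63, standard error 0.12, limma adjusted p = 0.00699). None of the 16 lists has an island at the Mlxipl promoter, nor at the RefSeq start 17.0 kb upstream. Most of the islands in its window lie in the promoters or exons of other genes, namely Dnajc30, Wbscr22, Vps37d, Tbl2, Bcl7b and Baz1b, so the lower value describes the neighbourhood. With the window narrowed to 10 kb on each side the Mlxipl change was 0.27 (limma, adjusted p = 0.329).

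The calls differed in how well they held. Over 18 alternative settings Scd1 kept its call in 18, Fasn, Scd2 and Mlxipl in 17, Srebf1 in 12, Thrsp in 9 and Elovl6 in 8. Srebf1 lost it without any single 48 h library, Thrsp without empty-vector 0 h A or B, empty-vector 48 h A or SETD5 48 h A or B, and Elovl6 without empty-vector 0 h A, empty-vector 48 h A or B, or SETD5 0 h A or B.

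SETD5 cells were tested in the same fit. From 0 h to 48 h, Scd1, Fasn, Scd2 and Srebf1 were called higher and Mlxipl lower, 4 and 1 of 10, against 14.4% and 11.4% of all genes. Scd1 went from 4.4 and 4.0 kb to 15.8 and 25.0 kb (log2 change 2.01, standard error 0.21, limma adjusted p = 0.000958). Fasn went from 15.9 and 16.3 kb to 24.5 and 30.7 kb (log2 change 0.73), and Scd2 from 29.0 and 31.0 kb to 42.0 and 45.6 kb (log2 change 0.53). Scd1 alone of these kept its call under all 18 alternatives. Fasn lost it without SETD5 0 h A, SETD5 0 h B or SETD5 48 h B, and Scd2 without SETD5 0 h A or SETD5 48 h B. Srebf1 (limma adjusted p = 0.046) lost it without any 48 h library or either SETD5 0 h library, and Mlxipl (limma adjusted p = 0.0439) without any of the 8 libraries.

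**Figure D3:**
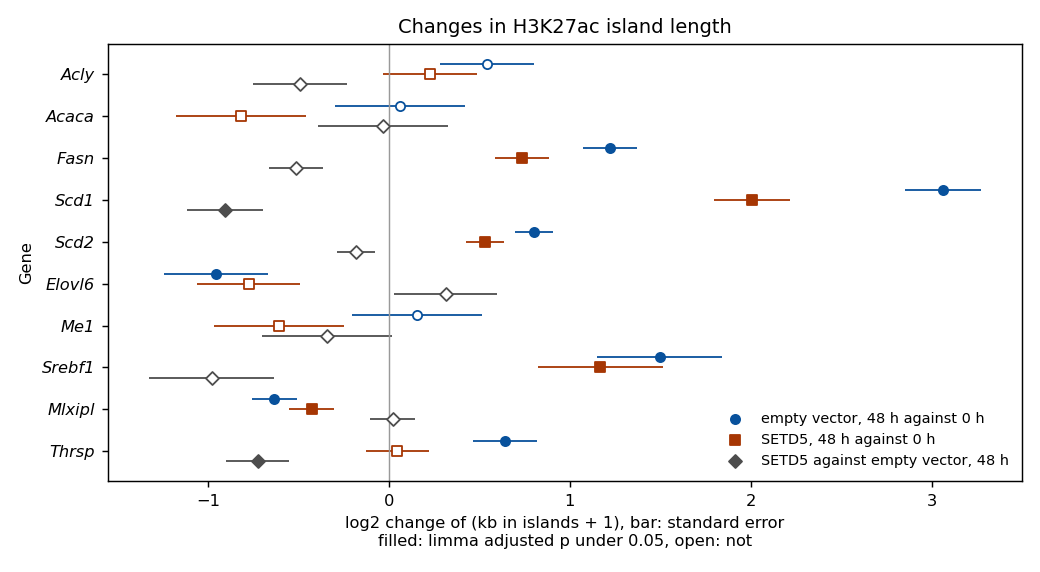
Log2 change of covered kb plus 1 (x axis) for each gene (y axis) in empty-vector cells over time, in SETD5 cells over time and between the vectors at 48 h, with bars of 1 standard error and filled symbols where limma's adjusted p was under 0.05. Scd1 changed by 3.06 and 2.01 over time in the empty-vector and SETD5 cells, and Scd1 and Thrsp are the filled points between vectors.

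Set against empty-vector cells at 48 h, SETD5 cells had less of the Scd1 and Thrsp windows covered by H3K27ac islands. Scd1 held 15.8 and 25.0 kb against 38.6 and 37.8 kb (log2 difference −0.91, standard error 0.21, limma adjusted p = 0.0328). Thrsp held 13.4 and 13.0 kb against 26 and 19.4 kb (log2 difference −0.73, standard error 0.18, limma adjusted p = 0.0378), and in SETD5 cells it stood at 11.6 and 14.0 kb at 0 h. These 2 of 10 calls in the lower direction and 0 in the higher compare with 7.4% and 6.44% of all genes. Neither call held with 10 kb flanks. The Scd1 promoter island was 4600 and 6400 bp in SETD5 cells (A and B) and 7200 and 6400 bp in empty-vector cells. The share of the list scoring higher than it was 10.3% and 8.86% against 8.41% and 7.35%. The Thrsp promoter island was 4600 bp in both SETD5 lists, against 7200 and 6000 bp. By covered length of the window, both SETD5 lists lay below both empty-vector lists for 6 genes (Srebf1, Acly, Fasn, Scd2, Thrsp and Scd1). They lay above for 0, against 32.5% and 22% of all genes. Fasn (24.5 and 30.7 kb against 44.1 and 35.5 kb, limma adjusted p = 0.064) and Srebf1 (29.4 and 26.8 kb against 60.8 and 52.2 kb, limma adjusted p = 0.11) did not pass. Both calls held under 7 of 18 alternatives, with adjusted p from 0.0159 to 0.826 for Scd1 and from 0.00707 to 1 for Thrsp. Scd1 lost its call without any 1 of the 8 libraries other than SETD5 48 h B, and Thrsp without any other than empty-vector 48 h B.

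The shape at Srebf1 differed between vectors as well as the length. Where empty-vector cells had 1 island of 37000 and 32200 bp, SETD5 cells had 3 separate islands from the gene body to the promoter in each replicate, of 6600, 7200 and 6600 bp in A and of 6600, 6400 and 6000 bp in B, besides another of 1600 bp near the 3′ end in B. The promoter island was the best of them, with 8.23% (A) and 8.80% (B) of the lists scoring higher. Over the whole lists at 48 h, SETD5 cells had 39068 and 39451 islands with median lengths of 2000 and 2200 bp (A and B). Empty-vector cells had 31292 and 33131 islands, with medians of 2800 and 2400 bp. The part of this list-wide trait in the shape at Srebf1 was not tested.

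**Figure D4:**
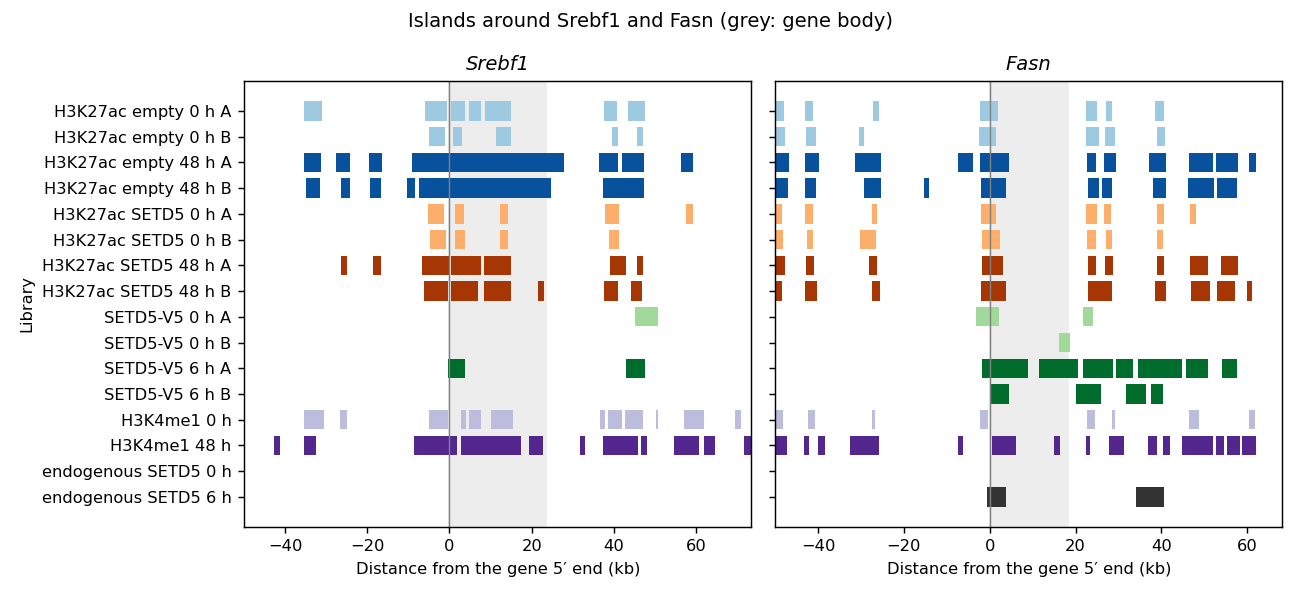
Islands of all 16 lists around Srebf1 and Fasn by distance from the gene 5′ end (x axis, kb), 1 row per list, with the gene body in grey. Srebf1 shows 1 island of 37000 and 32200 bp in the empty-vector 48 h lists and shorter ones in the SETD5 48 h lists, and has no SETD5-V5 island in replicate B.

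At 0 h no gene of the 10 was called higher or lower (limma), 0 had an unadjusted p under 0.05, and 1.3% and 0.901% of all genes were called. Acaca had the largest difference, 13.4 and 7.2 kb in SETD5 cells against 3.6 and 7.0 kb (log2 difference 0.84, standard error 0.36, limma adjusted p = 0.332). The difference between vectors in the change over time, which tests directly whether SETD5 cells responded less, passed for none of the 10 genes (limma), while 1.41% and 1.86% of all genes passed in each direction. Scd1 (−1.06, standard error 0.30) and Thrsp (−0.60, standard error 0.25) had an unadjusted p under 0.05, with limma adjusted p of 0.107 and 0.245.

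Of the H3K27ac islands in the 10 windows at 48 h in empty-vector cells, 20 of 62 (replicate A) and 23 of 58 (replicate B) had no 0 h island, 32.3% and 39.7%, against 28.9% and 30.9% over the genome. Of these induced islands, 12 of 20 (60%, 95% Wilson interval 38.7% to 78.1%) and 12 of 23 (52.2%, 33.0% to 70.8%) had no counterpart in the SETD5 48 h list of the same letter. The mean was 56.1% ± 5.53 (SD, n = 2), against 33.5% ± 4.01 over the genome. In the other empty-vector replicate, 5 of 20 (25%) and 2 of 23 (8.70%) lacked a counterpart, against 19.95% and 22.3% over the genome. The intervals cover counting error only, and islands of 1 window are not independent. The missing islands lay in the windows of Fasn, Scd1, Scd2, Me1, Srebf1 and Thrsp. Most of them ranked low. In A, 35.9% of the list scored higher than an Scd1 island and at least 55.9% than each of the others. In B at least 52.7% scored higher than each. For the induced islands that were kept, the share scoring higher ran from 4.80% to 79.8% in A and from 3.07% to 84.1% in B. The shares missing were not compared at matched rank, so the part of weak islands near the caller's threshold was not tested. At Me1, a pair of sites inside the gene, 52.5 and 57.1 kb from the 5′ end, appeared in each empty-vector list at 48 h and in no SETD5 list, and neither overlapped SETD5-V5 or H3K4me1. At Scd1 most induced islands were kept, with 3 of 7 and 1 of 7 missing.

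SETD5-V5 islands at 6 h were longest over the desaturases. At Scd1 the window held 0 kb and 4.0 kb at 0 h and 51.2 and 42.0 kb at 6 h, and a single island of 27600 and 25800 bp covered the promoter, the gene and the strongest induced H3K27ac site downstream. Only 1.02% and 0.974% of the lists scored higher. Scd2 was bound before differentiation, with an island of 23800 and 19400 bp over the gene at 0 h (2.39% and 4.41% scoring higher) and 31800 and 29600 bp at 6 h (0.455% and 0.577%). Its window held 35.2 and 27.6 kb and then 68.4 and 60.6 kb. At Fasn there were 7.6 and 2.6 kb at 0 h and 50 and 17.8 kb at 6 h. Acaca was listed at 0 in both 0 h lists, and held 18.8 and 16.8 kb at 6 h. None of it lay at the annotated 5′ end. Islands of 6800 and 6400 bp were centred 50.6 kb into the gene, over further annotated starts, and the RefSeq start, 65.8 kb inside, was covered in both replicates. At Acly (0 and 0 kb, then 16.5 and 7.2 kb) and Me1 (0 and 0 kb, then 18.1 and 8.6 kb) the 0 h lists held none either. The Acly island was 9000 bp and covered the 5′ end in A, and was 7200 bp and ended 0.314 kb inside it in B. At Me1 the one place bound in both replicates was an island of 4600 and 4000 bp about 14 kb upstream. Elovl6 had 3.0 and 0 kb and then 9.8 and 11.8 kb, mostly at its promoter.

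At the regulators, Srebf1 held 5.4 and 0 kb of SETD5-V5 at 0 h and 8.6 and 0 kb at 6 h, the latter including a 4000 bp island at the promoter in A. Thrsp held none at 0 h and 1.4 and 2.4 kb at 6 h. Mlxipl held 9.45 and 0.854 kb and then 18.3 and 4.45 kb, with every island over Vps37d, Tbl2, Bcl7b or Baz1b.

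**Figure D5:**
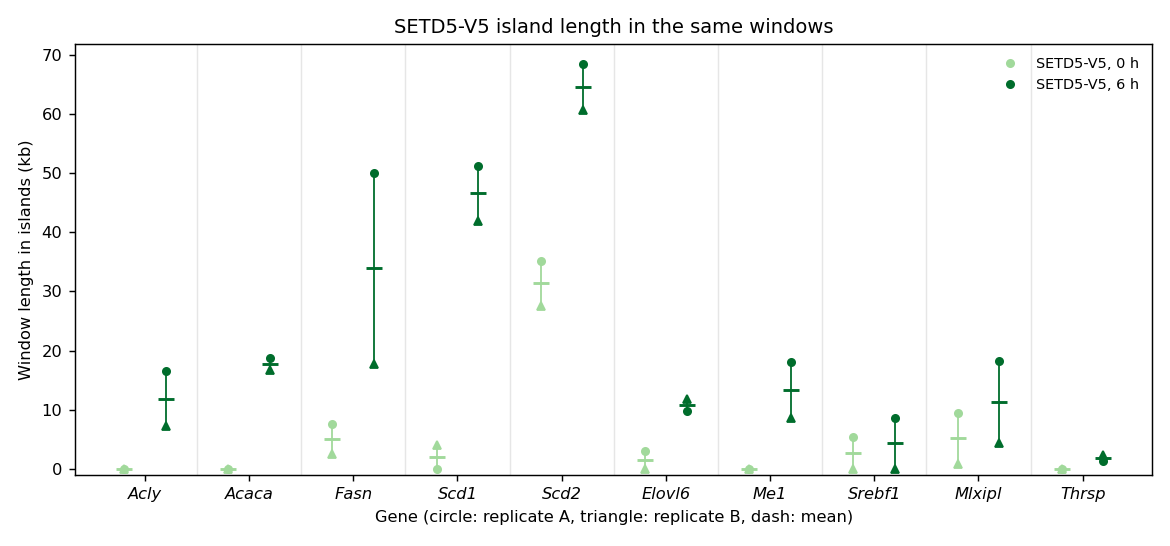
Length of each gene's window in SETD5-V5 islands (y axis, kb) at 0 h and 6 h, by gene (x axis), with replicate A as a circle, replicate B as a triangle, a line joining them and their mean as a dash. Scd2 stands apart at 0 h, with 35.2 and 27.6 kb, and Srebf1 and Thrsp stay at 8.6 kb or less at 6 h.

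Both 6 h lists lay above both 0 h lists for 8 of the 10 genes, against 56.4% of all genes. Among the 8, Acaca, Acly, Me1 and Thrsp are at 0 in both 0 h lists and entered only through the 6 h lists. At such genes any island in both 6 h lists counts as higher, so the count is no support for a gain beyond the lengths given. The test across 16393 genes called 2 of 10 higher, Acaca (limma adjusted p = 0.0478) and Me1 (limma adjusted p = 0.0493), against 7.02% of all genes. Both genes are at 0 in both 0 h lists, so they entered the test only through the 6 h lists where they are high. Their 0 h values have no spread, and both calls were lost with no filter on genes. They are therefore no support for a gain at these 2 genes beyond the lengths given above. Acly (limma adjusted p = 0.0541) and Scd1 (log2 change 4.41, standard error 1.05, limma adjusted p = 0.0974) did not pass. No fold is given for Acaca, Me1, Acly and Thrsp, since both 0 h lists are at 0 there. The 6 h lists are longer as a whole, with 35573 and 27220 islands against 16054 and 6666, and the median log2 change was 1.63 over all genes and 2.52 over the 10, those 4 included at their fitted values. It was 0.90 over all genes after scaling to the length each list covers and 0.64 with equal numbers of islands, and 0 of the 10 were called under either. Both calls are also lost without SETD5-V5 0 h A or 0 h B.

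Endogenous SETD5 had an island in the window of 1 gene at 0 h, Mlxipl, and of 5 at 6 h, Acly, Fasn, Scd1, Scd2 and Mlxipl, against 11.2% and 20.8% of all genes. With 1 list per time there is no test. At 6 h Scd2 had an island of 20200 bp across the gene (6.35% of the list scoring higher) and Scd1 one of 15000 bp that ended 0.199 kb inside the 5′ end (10.2%). Both lie inside the SETD5-V5 islands at 6 h of the same genes. Fasn and Acly had islands of 4400 and 5000 bp at their promoters. Srebf1, Thrsp, Elovl6, Acaca and Me1 had none at either time.

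H3K4me1, which marks enhancers both poised and in use, covered more of 5 windows at 48 h, past 1.5-fold of covered kb plus 1, and less of 0, against 29.4% and 16.1% of all genes. Scd1 went from 16 to 47.3 kb, Fasn from 12.5 to 43.3 kb and Acly from 2.2 to 11.2 kb. Acaca and Me1 held none at 0 h and 3.8 and 3.2 kb at 48 h. Srebf1 (37.0 and 54.4 kb), Scd2 (40.6 and 55.4 kb) and Mlxipl (8.2 and 12.2 kb) stayed under that fold, and Elovl6 (8.4 and 7.2 kb) and Thrsp (12.8 and 10.8 kb) were lower by less than it. Scd1 thus had 16 kb of H3K4me1 at 0 h beside 3.4 and 4.0 kb of H3K27ac. Of the induced H3K27ac islands in the 10 windows, 12 of 20 and 10 of 23 overlapped H3K4me1 at 0 h (60% and 43.5%), against 38.3% and 38.3% over the genome. SETD5-V5 at 6 h overlapped 9 of 20 and 9 of 23 of them (45% and 39.1%), against 50.8% and 40.0%. At Scd1 it overlapped 6 of 7 and 7 of 7, and at Me1, Srebf1 and Thrsp 0.

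At the promoters, 1000 bp upstream to 100 bp downstream of the 5′ end, 8 of the 10 genes had H3K27ac islands in both lists of each vector at 0 h and 9 at 48 h, where Srebf1 was added and Mlxipl was lacking. Over all genes the share was 42.8% to 45.3%. Srebf1 already had an island there at 0 h in 1 list of each vector, empty-vector A (5400 bp) and SETD5 B (3800 bp). At its annotated coding start 1.98 kb inside the gene, every H3K27ac list had an island at 0 h. No H3K27ac list had an island at the RefSeq starts of Acaca and Me1, 65.8 and 8.74 kb inside those genes. The Acaca island counted here also overlaps the promoter of Tada2a. Every H3K27ac list had an island at the Acaca coding starts 50.1 and 50.2 kb inside. SETD5-V5 was at 1 promoter in both 0 h lists, that of Scd2, and at 4 in both 6 h lists, those of Fasn, Scd1, Scd2 and Elovl6, against 3.39% and 18.2% of all promoters. Acly, Me1, Srebf1 and Thrsp had it in replicate A alone at 6 h.

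Another 28 genes of the pathway, listed by name, were counted in the same fit. In empty-vector cells 14 were called higher at 48 h and 1 lower, against 23.5% and 13.1% of all genes, with the largest changes at Scd3 (2.17), Elovl3 (1.82), Idh1 (1.80), Mid1ip1 (−1.25) and Elovl1 (1.11). Idh1 makes NADPH in the cytosol, and Elovl3 is an elongase of brown and white fat. The window of Scd3 overlaps that of Scd2. Scd4, called higher over time in both empty-vector (1.09) and SETD5 cells (0.66), lies within the windows of both Scd1 and Scd2. Islands in these overlaps count for each gene. In SETD5 cells 9 were called higher and 3 lower, against 14.4% and 11.4%, with the largest changes at Idh1 (1.54), Scd3 (1.04) and Fads1 (−0.88). Between the vectors at 48 h 3 were called higher and 4 lower, against 6.44% and 7.4%, among them Elovl7 (2.46), Elovl3 (−1.24), Scd3 (−0.98), Elovl5 (0.86) and Acacb (−0.64). At 0 h none was called by limma, and 5 had an unadjusted p under 0.05. The difference in the change over time passed for 2 in the lower direction, against 1.86% of all genes, Nr1h3 (−1.19, standard error 0.21, limma adjusted p = 0.0346) and Scd3 (−1.13, standard error 0.16, limma adjusted p = 0.0213). Nr1h3 encodes the oxysterol receptor LXR-alpha, which acts upstream of Srebf1. SETD5-V5 was called higher at 6 h for 3 of the 27 tested, Insig2, Elovl7 and G6pdx, against 7.02% of all genes. These calls were lost with lists scaled or held to equal numbers of islands and without SETD5-V5 0 h A or 0 h B, where limma called 0 genes in all, with 2303 to 7575 genes at an unadjusted p under 0.05.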

How the data were processed

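Island lists from 16 ChIP-seq libraries of 3T3-L1 cells were used. Per the study's methods, the authors aligned the first 36 bases of each read to mm9 (ELAND or Bowtie2) and ran SICER or SICER2 on each library, with a window of 200 bp, a gap of 400 bp (histone marks) or 600 bp (SETD5) and an E-value of 100. Where the study's reporting summary gives counts from both callers, the lists used here have the SICER2 numbers. The deposited lists give each island's position and the authors' score, which served only to rank islands within a list. No read counts were used, so depth per island is unknown.

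All 22 chromosome names and every island end lay within NCBIM37 (mm9). Gene models are those of GENCODE for that build. Covered length per window was compared with limma 3.58.1 (R 4.3.3, with a mean-variance trend) on log2 of kb plus a pseudocount of 1 kb, over all genes with an island in any list of the mark, without a block and with a Benjamini-Hochberg threshold of 0.05. Exact permutation of 2 against 2 cannot go below p = 0.333. The study describes the replicates of H3K27ac and SETD5-V5 as biological. Sequences were read with samtools 1.23.1, and other steps used Python 3.11.15.

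The genes, lists and tests were chosen with earlier results of these data known. All 10 genes are named, and of 28 further pathway genes up to 5 per comparison, those with the largest change among the called, plus Nr1h3 and Scd3 for the difference in change. Scd4 is named as well, because it lies within the windows of Scd1 and Scd2. Named sites are promoter islands and up to 2 induced distal sites per gene. Other islands were named after their values were seen. Alternatives were other island sets, scalings, windows, units, filters, pseudocounts, a replicate block and each library left out. 2 more were chosen after seeing the data, namely dropping islands at promoters of other genes and dropping a replicate from the promoter counts. The promoter sequences of the other 9 genes are not reported here.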

Additional observations from a re-analysis of the deposited data

How the results depend on the processing

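Of the values for single genes under the alternatives, 915 kept their direction and their side of the threshold, 95 fell below it, 23 newly passed it and 4 changed sign. The cause was not tested for any of them. With the number of islands in place of length, Scd2 changed by −0.0760 in empty-vector cells and by −0.16 in SETD5 cells, and Acly by −0.32 in SETD5 cells. With 10 kb flanks, Mlxipl changed by 0.27 in empty-vector cells.

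Of the 10 genes, 5 were called higher over time in empty-vector cells, and 3 with 10 kb flanks, 2 by number of islands and 3 with no filter. The 2 called lower became 0 with 10 kb flanks and 1 each by number of islands, with no filter, under the replicate block and without islands at promoters of other genes. In SETD5 cells the 4 called higher became 1 by number of islands. The 1 called lower became 0 with equal numbers of islands, 10 kb flanks, full island length and the replicate block, and 2 with islands above the median score or scaled to covered length. Between vectors at 48 h the 2 called lower became 4 when scaled, 0 with 10 kb flanks or no filter, and 1 by number of islands or under the replicate block. The difference in change over time, 0 lower, became 1 by number of islands. For SETD5-V5 the 2 called higher became 0 with equal numbers, scaled or with no filter, 1 with full length and 4 under the replicate block.

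With 1 library left out, the counts ran from 3 to 5 (empty-vector, higher), 1 to 2 (empty-vector, lower), 1 to 4 (SETD5, higher), 0 to 0 (SETD5, lower), 0 to 1 (vectors at 48 h, lower) and 0 to 4 (SETD5-V5, higher), a lone library being taken to vary like the other groups. With 1 replicate dropped, SETD5-V5 was at 1 to 3 promoters at 0 h and 4 to 8 at 6 h, and with equal numbers of islands at 2 at 6 h. H3K4me1 at 48 h was at 7 promoters by any annotated start and 8 within 2000 bp. With 10 kb flanks, endogenous SETD5 was in 0 windows at 0 h. For induced H3K27ac islands in the windows, share without a SETD5 48 h island, the value with these flanks was 73.3%.

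The labels give replicate letters and do not say whether samples of the same letter were paired. Deviations from group means correlated weakly by letter, by −0.0387 to 0.114 across the H3K27ac groups and by −0.0108 for SETD5-V5. Such values cannot show whether the samples were paired. Depth per island is not given in the lists, and a missing island means only that the region was below the caller's threshold.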
